A study of Mus musculus with 5 samples.

Results

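The secreted Wnt antagonists are proteins that hold Wnt signalling in check outside the cell. The genes described are the 10 whose deposited symbol is Sfrp1, Sfrp2, Sfrp4, Sfrp5, Frzb, Dkk1, Dkk2, Dkk3, Wif1 or Notum, each found once among 40624 genes. Their RNA was counted in atria of newborn C57BL/6 mice (P1). The 2 mutant libraries (5 and 7) carried SLN-Cre with both Nkx2-5 alleles floxed (Nkx2-5-flox/flox), and the 3 control libraries (2, 4 and 6) carried SLN-Cre with 1 floxed allele (Nkx2-5-flox/+). Both groups therefore carried the Cre, and 1 allele of the controls was also floxed. The Cre is expressed from Sln, a gene of atrial myocytes, so other cells of the tissue were not its target. Nkx2-5 is a homeodomain transcription factor of heart muscle.

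Wnt ligands are lipid-modified proteins that bring together a Frizzled receptor and an LRP co-receptor, which stabilises beta-catenin in the canonical branch of the pathway. Secreted frizzled-related proteins (Sfrp genes and Frzb) and Wnt inhibitory factor (Wif1) bind the ligand itself. Dickkopf proteins (Dkk genes) bind the LRP co-receptor, with the exception of Dkk3, a divergent relative that is not a typical LRP antagonist. Notum is an enzyme that strips the lipid from the ligand. In the heart, Wnt activity is needed and then restrained at successive steps of myocyte formation, and Sfrp5 marks progenitors of the inflow tract in the mouse embryo.

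Gene counts summed to 78.8 M in mutant 5 and 69.6 M in mutant 7, and to 58.5 to 60.9 M in each control. Nkx2-5 stood at 5.79 and 5.21 CPM (counts scaled to library size) in mutants 5 and 7, against 76.8, 72.1 and 71.3 CPM in controls 2, 4 and 6, so the labels matched the targeted gene. The atrial myosin light chain gene Myl7 stood at 9949 to 10817 CPM in mutant and 10285 to 11075 CPM in control libraries. By Xist and the Y-linked gene Ddx3y, mutant 5 and control 4 were male and the other 3 libraries female. The labels do not say whether each library came from its own animal. Libraries of different sex cannot share an animal, which separates mutant 5 from mutant 7 and control 4 from controls 2 and 6. Each p-value refers to the spread among these libraries, which may be technical between controls 2 and 6. No library was a copy of another: chi-square per degree of freedom was 85.4 between the mutants and 20.3 to 33.9 between controls. In bulk tissue, fewer cells of a type and less RNA per cell cannot be told apart.

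Sfrp5 and Dkk1 were higher in mutant atria, and the other members that could be tested did not pass in either direction. Each fold change sets mutant over control, as a log2 value from edgeR's quasi-likelihood test, with p-values adjusted over all 17835 tested genes by the Benjamini-Hochberg method and a threshold of 0.05. Of the 9 members tested, 2 rose, 0 fell and 7 did not pass, where 3.02% of all tested genes rose and 3.57% fell (6.58% in either direction). In 2 members both mutant libraries lay above every control (18.6% of all tested genes), and in 0 both lay below (19.2%). The same 2 rises and 0 falls came from DESeq2, where 5.09% of genes rose and 5.71% fell, and from limma-voom, where 2.76% rose and 3.36% fell. In edgeR these 2 members were also the ones with an unadjusted p under 0.05. Dkk1 entered the test only through the mutant libraries, where it is high, so the count describes these members and supports nothing further. The median log2 fold change of the 9 was 0.00, against 0.01 for all tested genes. Sfrp4 was too low to be tested.

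**Figure D1:**
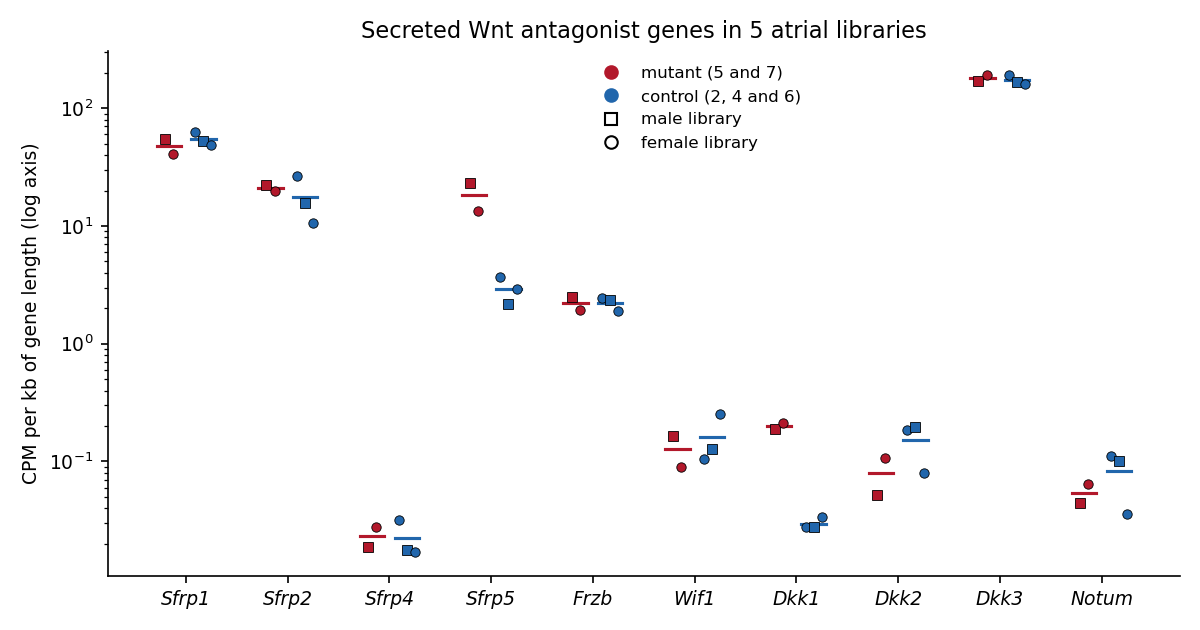
Level of each gene in CPM per kilobase of gene length (log axis), mutant libraries in red to the left of control libraries in blue; each point is 1 library, squares are male and circles female libraries, and bars are group means. Sfrp5 and Dkk1 have mutant points wholly above the control points, and the other 8 genes have overlapping groups.

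Among the members that bind the ligand, Sfrp1, Sfrp2, Sfrp5 and Frzb were the ones with levels above trace amounts. Levels of different genes are compared here per length, as CPM per kilobase of the deposited gene length. In mutant atria Sfrp1 averaged 48.1 ± 9.7, Sfrp2 21.0 ± 1.7, Sfrp5 18.4 ± 7.0 and Frzb 2.22 ± 0.42 CPM per kilobase (SD, n = 2). In control atria Sfrp1 averaged 55.0 ± 7.3, Sfrp2 17.7 ± 8.3, Sfrp5 2.92 ± 0.74 and Frzb 2.22 ± 0.29 CPM per kilobase (SD, n = 3). Sfrp5 thus stood with Sfrp2 in the mutants, where their libraries overlapped (13.4 and 23.3 against 19.8 and 22.3 CPM per kilobase), and near Frzb in the controls, where the ranges of Sfrp5 (2.18 to 3.66) and Frzb (1.88 to 2.43) also overlapped.

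Sfrp5 (ENSMUSG00000018822; chromosome 19, 42273175 to 42276501 on the minus strand, mm9) encodes a secreted frizzled-related protein with a Wnt-binding cysteine-rich domain. It had 3453 and 1739 counts in mutants 5 and 7, against 410, 246 and 341 counts in controls 2, 4 and 6. As levels these were 44.2 and 25.5 CPM in the mutants, against 6.95, 4.13 and 5.54 CPM in the controls. Both mutant libraries were above every control library, and mutant 5 was the higher of the pair. The log2 fold change was 2.65 ± 0.33 (SE), a 6.29-fold rise (adjusted p = 0.018, edgeR's quasi-likelihood test). The call was lost without control 2 (log2 fold change 2.85, adjusted p = 0.052) or control 6 (2.65, adjusted p = 0.073), with no filter on low counts (2.66, adjusted p = 0.070) and with sex as a covariate (2.62, adjusted p = 0.066). Within sex, the male mutant stood 10.7-fold above the male control, and the female mutant 4.08-fold above the mean of the 2 female controls. The authors' deposited table gives Sfrp5 a log2 ratio of 2.66 and an adjusted p of 3.8e-06. It is the 1 member among the 1342 genes of their shorter deposited table. The same number of genes in the full table have a p under 0.01 and an RPKM above 1 in either group.

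Sequence upstream of the start site was taken from RefSeq (GRCm38.p6) for the 6 members that matched by symbol, as the 250 bases before the start, and searched on both strands. The letters searched were AAGTG, the core of the sequence that Nkx2-5 binds, TNAAGTG, a longer form that contains it, and CTTTG, the core of the sequence that TCF and LEF factors bind. Sfrp5 is shown because it rose, Sfrp2 as its relative of like level in mutant atria that did not pass, and Dkk2 as a Dickkopf gene that did not pass. Capitals mark matches. The windows are chr19:42202253-42202502 on the minus strand for Sfrp5, chr3:83766071-83766320 on the plus strand for Sfrp2 and chr3:132085042-132085291 on the plus strand for Dkk2.
Sfrp5: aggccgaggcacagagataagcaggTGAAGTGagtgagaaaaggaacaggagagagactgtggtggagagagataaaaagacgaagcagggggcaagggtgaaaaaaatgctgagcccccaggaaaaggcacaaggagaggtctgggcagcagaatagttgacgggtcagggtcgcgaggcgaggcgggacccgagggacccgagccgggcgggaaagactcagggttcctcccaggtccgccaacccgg
Sfrp2: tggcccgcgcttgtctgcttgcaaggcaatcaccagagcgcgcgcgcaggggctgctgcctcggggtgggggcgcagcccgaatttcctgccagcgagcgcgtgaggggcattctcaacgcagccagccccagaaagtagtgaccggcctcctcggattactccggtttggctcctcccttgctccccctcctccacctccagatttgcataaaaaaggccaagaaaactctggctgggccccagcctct
Dkk2: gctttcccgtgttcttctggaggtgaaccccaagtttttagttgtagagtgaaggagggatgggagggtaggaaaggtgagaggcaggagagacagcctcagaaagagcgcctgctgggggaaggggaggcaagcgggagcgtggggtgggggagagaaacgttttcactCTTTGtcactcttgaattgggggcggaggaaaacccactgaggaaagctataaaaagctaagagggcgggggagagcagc

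The Sfrp5 window held 1 match to TNAAGTG, on the gene's strand and 225 bases before the start, and no CTTTG. Neither AAGTG nor TNAAGTG was in the windows of Sfrp2, Dkk2, Dkk1, Frzb or Wif1. The Dkk1 window held 4 matches to CTTTG, those of Dkk2, Frzb and Wif1 held 1 each and that of Sfrp2 none. By GENCODE, the last 169 bases of the Dkk1 window and 229 of the Frzb window lie within the gene, and these hold 3 of the 4 Dkk1 matches and the Frzb match. Of 32851 RefSeq promoter windows of the same length, 40.7% held AAGTG, 10.1% TNAAGTG and 48.6% CTTTG, so each is common. The Dkk1, Frzb and Wif1 windows are not printed because GENCODE places part of the gene there.

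Sfrp1 and Sfrp2, which bind Wnt ligands as Sfrp5 does, differed less between the groups than among the libraries of a group. Sfrp1 (ENSMUSG00000031548; chromosome 8, 24522257 to 24556960 on the plus strand, mm9) stood at 241 and 180 CPM in mutants 5 and 7, against 276, 232 and 213 CPM in controls 2, 4 and 6. Mutant 5 lay inside the control range and mutant 7 below it. At -0.19 ± 0.16 (SE) on the log2 scale, the difference did not reach the threshold (adjusted p = 0.56, edgeR).

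Sfrp2 (ENSMUSG00000027996; chromosome 3, 83570464 to 83577344 on the plus strand, mm9) stood at 52.2 and 46.4 CPM in mutants 5 and 7, against 62.8, 36.6 and 24.8 CPM in controls 2, 4 and 6. Both mutants lay inside the control range, which was wide. It missed the threshold, with a log2 fold change of 0.25 ± 0.45 (SE, adjusted p = 0.83, edgeR) that was -0.011 without control 6. By GENCODE, 347 exonic bases of Sfrp2 are shared with Gm26771 on the opposite strand. The strand setting of the counting was not known, so reads of the 2 genes could not be told apart there.

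Frzb (ENSMUSG00000027004; chromosome 2, 80253519 to 80286997 on the minus strand, mm9), the frizzled-related protein first known from cartilage, stood at 9.16 and 7.02 CPM in mutants 5 and 7, against 8.84, 8.56 and 6.86 CPM in controls 2, 4 and 6. The groups overlapped and their means were 8.09 ± 1.52 CPM (SD, n = 2) and 8.08 ± 1.07 CPM (SD, n = 3). Its log2 fold change was 0.00 ± 0.16 (SE, adjusted p = 0.996, edgeR), with no fixed sign across scalings (-0.032 with library totals alone).

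Sfrp4 (ENSMUSG00000021319; chromosome 13, mm9), a further frizzled-related gene, had 7 and 9 counts in mutants 5 and 7, against 9, 5 and 5 counts in controls 2, 4 and 6. With so few reads the ratio of mutant over control was 1.04 with a 95% interval of 0.50 to 2.13, an exact binomial interval that covers counting error only. It had the lowest level per length of the family in both groups.

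Wif1 (ENSMUSG00000020218; chromosome 10, 120471399 to 120536935 on the plus strand, mm9) was also scarce, with 44 and 21 counts in mutants 5 and 7, against 21, 26 and 53 counts in controls 2, 4 and 6. Control 6 held the highest value and the groups overlapped. The difference of -0.33 ± 0.48 (SE) on the log2 scale missed the threshold (adjusted p = 0.77, edgeR), and it was 0.14 without control 6 and 0.02 without mutant 7.

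The Dickkopf genes ranged from the most abundant member of the family, Dkk3, to Dkk1 and Dkk2 among the scarcest. Dkk1 (ENSMUSG00000024868; chromosome 19, 30621675 to 30623869 on the minus strand, mm9), the best known LRP antagonist and itself a target of Wnt signalling, had 36 and 35 counts in mutants 5 and 7, against 4, 4 and 5 counts in controls 2, 4 and 6. As levels these were 0.461 and 0.513 CPM in the mutants, against 0.068, 0.067 and 0.081 CPM in the controls. The libraries within each group were close together and the groups were far apart, at a level that remained low in both. Dkk1 rose 6.59-fold, a log2 fold change of 2.72 ± 0.45 (SE), with an adjusted p of 0.0098 in edgeR. From the summed counts of 71 and 13 the ratio was 6.72, with a 95% interval of 3.69 to 13.2 for counting error only.

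Dkk1 passed the filter on low counts in both mutant libraries and in 0 of the 3 controls, so its presence among the tested genes already depended on the difference. With no filter it also passed, with a log2 fold change of 2.73 ± 0.53 (SE) and an adjusted p of 0.0020 over 25941 genes in edgeR. The call was lost without mutant 7 (log2 fold change 2.64, adjusted p = 0.052, edgeR). The fold was 6.86 between the male libraries and 6.88 between the female ones. The authors' deposited table gives a log2 ratio of 2.68 and an adjusted p of 0.0083. Dkk1 is absent from their shorter table, where RPKM is above 1. Its RPKM was 0.183 in mutant and 0.0276 in control atria. Per length Dkk1 ranked 9 of 10 in control and 6 of 10 in mutant atria, with 0.201 ± 0.015 CPM per kilobase in the mutants and 0.0297 ± 0.0033 CPM per kilobase in the controls (SD, n = 2 and n = 3).

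Dkk2 (ENSMUSG00000028031; chromosome 3, 131748997 to 131841084 on the plus strand, mm9), a Dickkopf that can act on LRP in either direction depending on its partners, had 15 and 27 counts in mutants 5 and 7, against 40, 43 and 18 counts in controls 2, 4 and 6. Controls 2 and 4 were above both mutants, and control 6 lay between them. This difference, -0.95 ± 0.52 (SE) on the log2 scale, missed the threshold (adjusted p = 0.35, edgeR), and over the alternatives tried it ran between -1.55 and -0.51.

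Dkk3 (ENSMUSG00000030772; chromosome 7, 119261725 to 119301909 on the minus strand, mm9) was the most abundant member in every library. Its level was 576 CPM in mutant 5 and 642 CPM in mutant 7, against 648, 562 and 537 CPM in controls 2, 4 and 6. The mutants lay inside the control range. Mutant over control was 0.06 ± 0.10 (SE) on the log2 scale, a narrow error, and missed the threshold (adjusted p = 0.78, edgeR). Without mutant 7 it was -0.021.

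Notum (ENSMUSG00000042988; chromosome 11, 120515534 to 120521652 on the minus strand, mm9), the Wnt deacylase and a target of Wnt signalling like Dkk1, had 11 and 14 counts in mutants 5 and 7, against 21, 19 and 7 counts in controls 2, 4 and 6. Control 6 was below both mutants and the other controls were above them. Notum missed the threshold at a log2 fold change of -0.60 ± 0.58 (SE, adjusted p = 0.63, edgeR). By GENCODE it shares 918 exonic bases with Notumos and Myadml2os on the opposite strand, so its few reads could not be assigned with certainty.

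**Figure D2:**
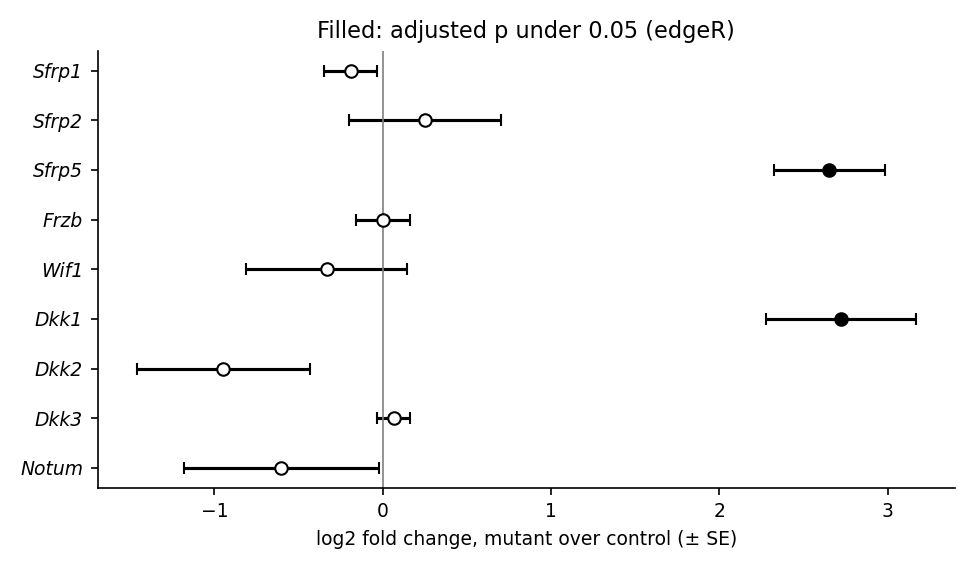
Log2 fold change of mutant over control with its SE for the 9 tested members; filled points passed an adjusted p of 0.05 in edgeR's quasi-likelihood test. Sfrp5 (2.65) and Dkk1 (2.72) stand apart from the other 7, which lie between -0.95 and 0.25.

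The summed level of the family was not distinguishable between the groups. It was 923 and 903 CPM in mutants 5 and 7, against 1004, 846 and 789 CPM in controls 2, 4 and 6. Both mutants lay inside the control range (exact two-sided permutation test over the libraries, p = 0.70, where 10 splits allow no p under 0.1), and without control 6 the difference of 33.5 CPM became -10.6 CPM. Counted per length, Dkk3 made up 62.4% and 71.3% of the family's summed level in mutants 5 and 7, against 66.7%, 69.4% and 71.2% in controls 2, 4 and 6. Sfrp1 followed with 20.01% and 15.4% in the mutants, against 21.7% to 22.0% in the controls. Sfrp5 made up 8.47% and 5.00% in the mutants, against 1.26%, 0.90% and 1.30% in the controls. Both mutants lay outside the control range, below it for Sfrp1 and above it for Sfrp5. The shares are parts of the same total, so a larger share of Sfrp5 lowers the others. The share of Dkk1, 0.074 ± 0.007% in the mutants and 0.012 ± 0.003% in the controls (SD), also did not overlap. For these 3 shares the exact two-sided permutation p was 0.1, the smallest the design allows. The ratio of Sfrp5 to Sfrp1 per length was also taken within each library. It was 0.42 and 0.32 in mutants 5 and 7, against 0.058, 0.041 and 0.060 in controls 2, 4 and 6. This ratio needs no scaling between libraries but also depends on Sfrp1. The level of Sfrp1 lay inside the control range in mutant 5 and below it in mutant 7. For the ratio, the exact two-sided permutation p was again 0.1.

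**Figure D3:**
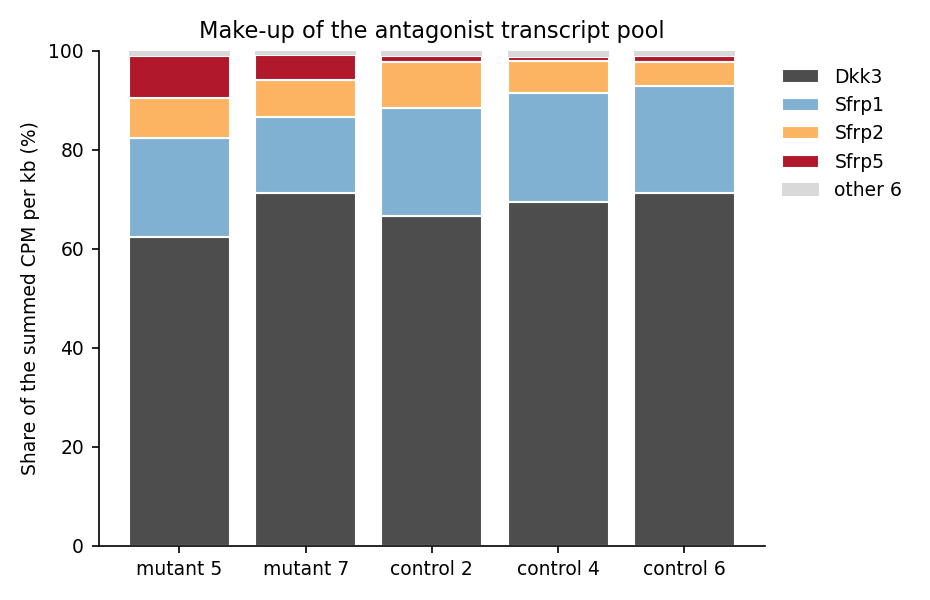
Share of each gene in the summed CPM per kilobase of the 10 members, 1 bar per library, mutants left of controls. The Sfrp5 segment is 5.00% to 8.47% in the mutants and 0.90% to 1.30% in the controls, while Dkk3 makes up 62.4% to 71.3% throughout.

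The calls of Sfrp5 and Dkk1 were not kept each time a library was left out, while the direction of both did not change. Over all genes, the 1174 calls became 529 without control 2, 534 without control 4 and 746 without control 6. Over every alternative in which it could be fitted, the log2 fold change of Sfrp5 lay between 2.20 and 2.99 and that of Dkk1 between 2.62 and 2.82. The lowest value of Sfrp5 came without mutant 5, in which it was highest. Without any 1 library the adjusted p in edgeR was at most 0.073 for Sfrp5 and at most 0.052 for Dkk1. Only 1 of the 2 was called with no filter (2.86% of tested genes rose there), with 1 CPM asked for in 2 libraries (3.68%), at a threshold of 0.01 (0.88%) and with sex as a covariate (2.64%). The same held without mutant 7 (2.19%), without control 2 (1.26%) and without control 6 (1.85%).

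**Figure D4:**
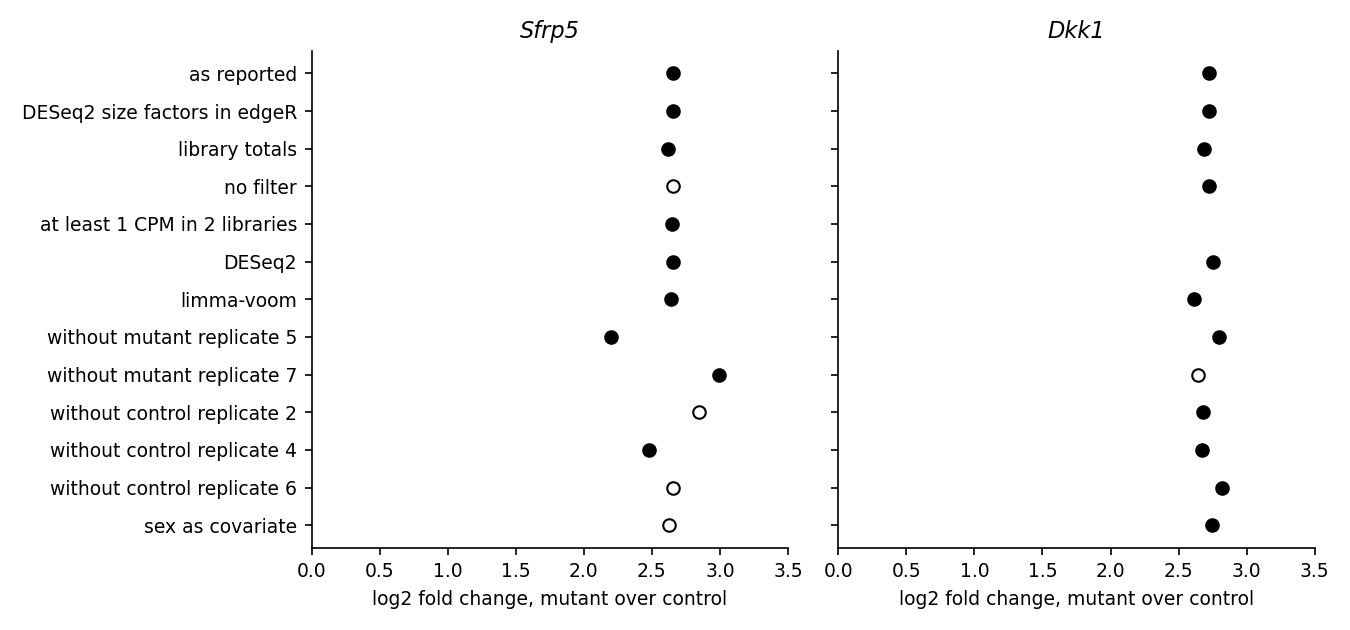
Log2 fold change of mutant over control for Sfrp5 (left) and Dkk1 (right) under the reported fit and 12 alternatives; filled points have an adjusted p under 0.05. Log2 fold changes stay above 2 throughout, Sfrp5 loses its call under 4 of the alternatives shown and Dkk1 under 1, and Dkk1 was not tested where 1 CPM in 2 libraries was asked for.

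Sfrp5 and Dkk1 lie on the same chromosome, with starts 11.7 Mb apart in mm9. Of the 2 nearest tested genes on either side of each, none passed in edgeR. Next to Sfrp5, Zfyve27 had a log2 fold change of -0.03 ± 0.11 (SE), Marveld1 of -0.10 ± 0.07, Golga7b of 0.98 ± 0.28 (adjusted p = 0.077) and Crtac1 of -1.55 ± 0.47 (adjusted p = 0.098). Next to Dkk1, Gldc had 0.33 ± 0.16, Uhrf2 0.01 ± 0.06, Cstf2t 0.01 ± 0.09 and Prkg1 0.06 ± 0.12. These neighbours were chosen by position after the values of the family were known.

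The genes whose profile over the 5 libraries was most like that of Sfrp5 were Hey2, Smyd2 and Acta2, of 13139 compared. The measure was the root mean square difference of log2 CPM (with a prior of 2 counts) after centring each gene, which was 0.34, 0.42 and 0.48. For Dkk1 they were Smyd2, Hey2 and BC048546, at 0.04, 0.15 and 0.27. The prior draws the few control counts of Dkk1 upward. With the smaller prior count of the test, tried after seeing the data, the order for Dkk1 was Hey2, Smyd2 and Alox8 (0.097, 0.22 and 0.33), and the genes for Sfrp5 were the same 3. Hey2, the gene of a repressor of atrial genes in ventricular muscle, stood at 36.4 and 34.5 CPM in mutants 5 and 7, against 5.48, 5.58 and 6.56 CPM in controls 2, 4 and 6. This likeness over 5 libraries is a description, with no test.

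The rest of the Wnt pathway was read from lists of ligands, receptors, agonists, inhibitors, targets and transduction genes. Counted once each and without the family, 82 genes were listed and 70 were tested, of which 3 rose, 6 fell and 61 did not pass in edgeR, against 3.02% and 3.57% of all tested genes. Their median log2 fold change was -0.02, against 0.01 for all tested genes. The count of 9 was 2 without control 2, 2 without control 4, 3 without control 6, 14 with no filter on low counts and 19 with DESeq2. Of the 9, Sp5 passed the filter on low counts in 2 mutant libraries and 1 control, and Wnt10b in 1 mutant library and 3 controls. Each thus entered the test only through the group where it is high, so the count describes these genes and supports nothing further.

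The ligands, the partners that the frizzled-related proteins bind, gave 0 rises and 3 falls among 12 tested of 19. Of all tested genes 3.02% rose and 3.57% fell, the shares that belong beside the count of each Wnt list here and below. Wnt5a, a mainly noncanonical ligand, stood at 21.9 and 25.4 CPM in mutants 5 and 7, against 31.2, 31.9 and 34.4 CPM in controls 2, 4 and 6, with no overlap and a log2 fold change of -0.46 ± 0.09 (SE, adjusted p = 0.023, edgeR). Wnt9a had -0.55 ± 0.10 and Wnt10b, at 0.154 and 0.264 CPM in the mutants against 0.64 to 1.01 CPM in the controls, had -1.96 ± 0.41. Wnt5a and Wnt9a lost their calls without control 2, control 4 or control 6, and Wnt10b without each of these or mutant 5 (highest adjusted p = 0.083, edgeR). DESeq2 and limma-voom called these 3 ligands as well.

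Among receptors and co-receptors, 1 of 19 rose. That was the proteoglycan gene Gpc4, whose product binds Wnt ligands at the cell surface, with a log2 fold change of 0.31 ± 0.07 (SE, adjusted p = 0.030, edgeR). It lost its call without mutant 5, control 2, control 4 or control 6 and with sex as a covariate. The Dickkopf partners Lrp5, Lrp6 and Kremen1 did not pass, at 0.33 ± 0.09 (adjusted p = 0.059), 0.11 ± 0.10 and -0.07 ± 0.06 (adjusted p = 0.64 and 0.58, edgeR).

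Of 8 tested genes of R-spondins, their LGR receptors and Wnt export, 2 fell. Wls, the carrier that brings lipid-modified Wnt to the surface, stood at 132 and 119 CPM in mutants 5 and 7, against 159, 165 and 163 CPM in controls 2, 4 and 6 (log2 fold change -0.37 ± 0.07 SE, adjusted p = 0.016, edgeR). Rspo3, which enhances Wnt signalling, had -1.22 ± 0.25. Wls lost its call without control 2, control 4 or control 6, and Rspo3 kept its call only without control 6 (highest adjusted p = 0.085, edgeR).

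Of the other inhibitors, 1 of 10 tested rose and 1 fell. Sost, the gene of the secreted LRP antagonist sclerostin, stood at 24.5 and 39.2 CPM in mutants 5 and 7, against 14.0, 14.7 and 10.4 CPM in controls 2, 4 and 6. Its log2 fold change was 1.29 ± 0.24 (SE, adjusted p = 0.045, edgeR). It lost this call without control 2, control 4, control 6 or mutant 7, with no filter, with limma-voom and with sex as a covariate (highest adjusted p = 0.16). Nkd1, an intracellular feedback inhibitor, had -0.84 ± 0.14 (adjusted p = 0.011, edgeR), a call lost without mutant 7 (adjusted p = 0.059).

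Among 12 tested of 15 Wnt target genes, the family member Dkk1 and Sp5 rose, and Nkd1, already counted among the other inhibitors, fell. Sp5, a transcription factor gene that responds to canonical Wnt signalling, stood at 1.14 and 0.718 CPM in mutants 5 and 7, against 0.153, 0.319 and 0.114 CPM in controls 2, 4 and 6 (log2 fold change 2.25 ± 0.47 SE, adjusted p = 0.025, edgeR). It lost its call without mutant 5, control 2 or control 6 (highest adjusted p = 0.094). Axin2, the common readout of canonical Wnt activity, stood at 6.75 and 6.59 CPM in mutants 5 and 7, against 8.53, 9.83 and 9.10 CPM in controls 2, 4 and 6. At -0.46 ± 0.12 (SE) on the log2 scale it missed the threshold (adjusted p = 0.056, edgeR). Rnf43 (-0.98 ± 0.36) and Znrf3 (-0.21 ± 0.13) also had both mutants below every control, as in 19.2% of all tested genes. Myc (0.44 ± 0.12) and Ccnd1 (0.36 ± 0.15) had both mutants above every control, as in 18.6% of all tested genes. The groups overlapped in Lef1 and Tcf7, and none of these genes passed in edgeR. In the transduction list, 0 of 15 passed in edgeR (2 with an unadjusted p under 0.05, 1 by DESeq2 and 0 by limma-voom), with log2 fold changes of -0.17 to 0.20.

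**Figure D5:**
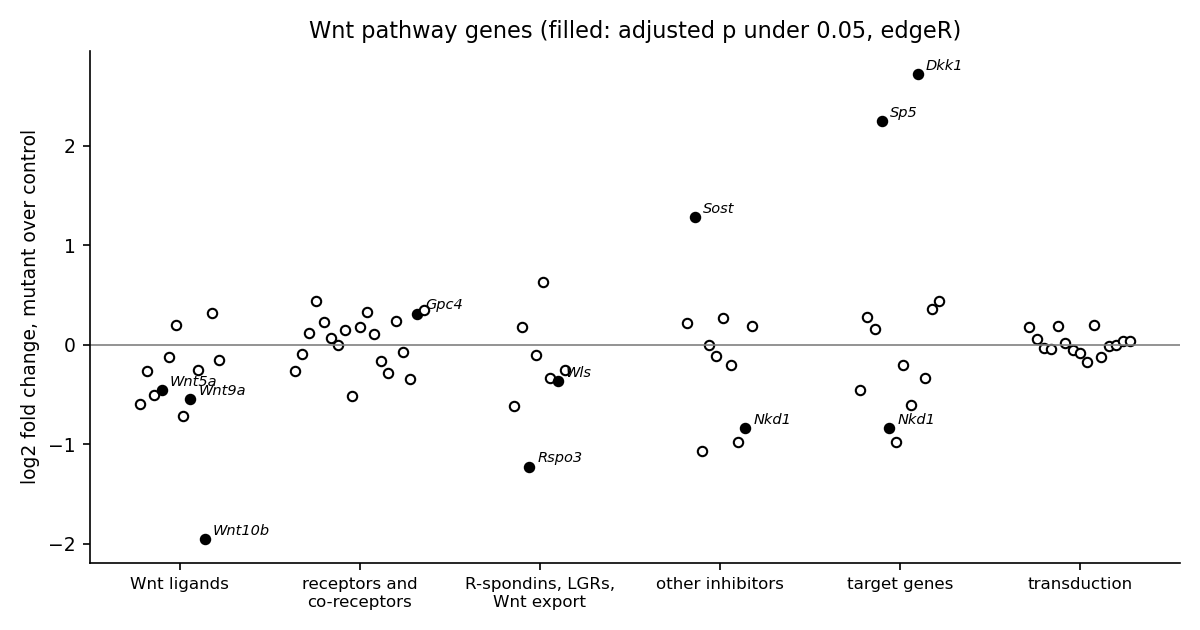
Log2 fold change of mutant over control for each tested gene of the 6 Wnt pathway lists; filled and named points passed an adjusted p of 0.05 in edgeR, and genes on 2 lists appear in both. Transduction genes lie between -0.17 and 0.20, while the called points run from -1.96 (Wnt10b) to 2.72 (Dkk1).

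Markers of other atrial cell types differed between the same groups. Beside the counts of each marker list, 3.02% of all tested genes rose and 3.57% fell. The summed level of 9 epicardial and mesothelial genes was 812 and 822 CPM in mutants 5 and 7, against 1201 to 1377 CPM in the controls, and 8 of the 9 fell, among them Upk3b and Msln. That of 9 fibroblast genes was 8684 and 8790 CPM in the mutants, against 10891 to 12411 CPM in the controls, and 3 fell (Col3a1, Dcn and Lum). Col3a1, Col1a1 and Col1a2 made up most of this sum. Both mutants were below every control in Col1a1, Col1a2, Tcf21 and Dpt, which did not pass, as in 19.2% of all tested genes. The groups overlapped in Pdgfra and Postn. The summed level of 6 smooth muscle and pericyte genes was 2188 and 1818 CPM in the mutants, against 702 to 878 CPM in the controls. In this list only Acta2 passed, at 1693 and 1244 CPM in the mutants, against 435, 432 and 366 CPM in the controls, and it made up most of the sum. That of 6 sinus node genes was 397 and 392 CPM in the mutants, against 190 to 235 CPM in the controls, and only Vsnl1 passed. Both mutants were also above every control in Hcn4 (72.8 and 86.3 CPM, against 20.5 to 45.8 CPM), Shox2 (28.5 and 27.96 CPM, against 12.7 to 24.03 CPM) and Tbx3 (15.6 and 15.7 CPM, against 5.05 to 10.7 CPM). Mutants lay above every control in 18.6% of all tested genes. The groups overlapped in Tbx18 and in Isl1, which stood at 0.923 and 1.35 CPM in the mutants, against 0.812 to 2.99 CPM in the controls. The ventricular gene Myl2 stood at 18.5 and 8.26 CPM in the mutants, against 22.3, 16.3 and 95.9 CPM in controls 2, 4 and 6, so control 6 stood apart. In the same list Myl3 stood at 22.3 and 15.4 CPM in the mutants, against 124, 67.2 and 145 CPM in controls 2, 4 and 6, with no overlap, and Myh7 at 2616 and 2259 CPM in the mutants, against 1846 to 2266 CPM in the controls. Of 7 atrial myocyte genes, Nppa fell and Bmp10 rose, with sums of 21144 and 20001 CPM in the mutants, against 24783 to 26903 CPM in the controls. Nppa held most of that gap, at 848.5 and 1193.5 CPM in mutants 5 and 7, against 5281 to 6769 CPM in the controls. The groups overlapped in Myl7, Myl4, Tbx5 and Nr2f2, and both mutants were below every control in Sln, which did not pass. Of 6 erythroid genes, Hba-a1 rose, with sums of 1781 and 1751 CPM in the mutants, against 1113 to 1458 CPM in the controls. Of 5 leukocyte genes, the macrophage marker Adgre1 rose (16.8 and 16.6 CPM in the mutants, against 12.2 to 13.5 CPM in the controls). Csf1r, the gene of highest level in this list, overlapped (68.3 and 56.2 CPM in the mutants, against 52.9 to 66.6 CPM in the controls). Ptprc overlapped too, and both mutants were above every control in Lyz2 and Cd68, which did not pass. The leukocyte sums were 144 and 147 CPM in the mutants, against 115 to 134.5 CPM in the controls. None of the endothelial, valve, neuron and Schwann cell, skeletal muscle, lung or ventricular markers passed, and Myod1 was at 0 in every library. Without passing, the endothelial genes Pecam1, Cdh5, Kdr, Emcn and Plvap also had both mutants above every control, while Tek and Npr3 overlapped. The same held for Myh11, Rgs5 and Pdgfrb of the smooth muscle list, while Tagln and Cnn1 overlapped. The part of these differences in the levels of Sfrp5, Dkk1 and the Wnt pathway genes was not tested.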

How the data were processed

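RNA was measured in atrial tissue; per the labels' protocols, TruSeq RNA libraries were made from 250 ng of total RNA. The deposited table holds, for each gene, whole-number read counts of every library with no normalization. It also gives the authors' RPKM (1 value per group), log2 ratio, p-value and adjusted p-value. The build is mm9 per the submitters' processing notes. Those notes name HTSeq 0.5.4p3, TopHat2 2.0.4 and DESeq without their roles or any strand setting. Coordinates are the spans listed in the deposited table. No_feature (3.97% to 6.03% of all counts per library) and ambiguous entries (2.31% to 3.18%) were left out of totals and tests.

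Counts were filtered by filterByExpr (minimum count 10, total 15), scaled by TMM and tested with edgeR 4.0.16 in R 4.3.3 (glmQLFit, robust; glmQLFTest, two-sided, no covariate; prior count 0.125), with Benjamini-Hochberg adjustment over 17835 genes and a threshold of 0.05. SE is the absolute log2 fold change over the square root of F. CPM are counts over TMM-scaled totals. The script was tested on simulated data. DESeq2 1.42.0 and limma 3.58.1 (voom) were alternatives, with other scalings and filters, a threshold of 0.01, leaving out each library, and sex as a covariate. Sex was read from the counts of Xist and Ddx3y. Exon overlaps and alternative exon lengths come from GENCODE vM21 (GRCm38), and none of its coordinates are mixed with mm9.

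Adgre1 and Trabd2b stand in the table under other symbols and were matched by Ensembl ID. The members and lists were chosen with earlier results of these data known. Named genes are all members, Nkx2-5, every listed Wnt pathway gene that passed, marker genes of highest level and, for each called member, the 3 genes of mean log2 CPM of at least 1 with the most similar centred profile. Of the markers so named, only some are given, and Lrp5, Lrp6, Kremen1, Axin2, Adgre1, Alox8, Bmp10, Dcn, Lum, Isl1, Shox2, Tbx3 and Myod1 were named after their values were seen. So were the markers Sln, Tbx5, Nr2f2, Kdr, Emcn, Plvap, Tek, Myh11, Rgs5, Pdgfrb, Pdgfra, Postn, Tcf21, Dpt, Cd68 and Ptprc. The same holds for the target genes Myc, Ccnd1, Rnf43, Znrf3, Lef1 and Tcf7.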

Additional observations from a re-analysis of the deposited data

How the results depend on the processing

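With 2 mutant and 3 control libraries, an exact permutation test of a single value cannot go below p = 0.1, and genes with at most 53 counts per library (Sfrp4, Wif1, Dkk1, Dkk2, Notum) carry wide counting error. No paired analysis was possible because the groups share no replicate number. Of 113 refits of the 9 tested members, 98 kept their direction and their side of the threshold, 6 lost a call and 9 turned sign, and the cause was not tested. The lost calls were those of Sfrp5 with no filter (log2 fold change 2.66), at a threshold of 0.01 (2.65) and with sex as a covariate (2.62), and, leaving out a library, of Sfrp5 (2.20 to 2.99 over the 5 refits) and Dkk1 (2.64 to 2.82).

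The turned signs were those of members that did not pass anyway. Frzb was -0.032 with library totals, -0.00039 where 1 CPM in 2 libraries was asked for, -0.048 with sex as a covariate and -0.20 (without mutant 5) to 0.18 as each library was left out. As each library was left out, Sfrp2 ran between -0.011 (without control 6) and 0.68, Dkk3 between -0.021 (without mutant 7) and 0.15, and Wif1 between -0.84 and 0.14, with positive values without mutant 7 or control 6. The family's summed level differed by -10.6 to 95.3 CPM (mutant minus control) as each library was left out.

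The count of 2 members called was 1 with no filter, 1 where 1 CPM in 2 libraries was asked for (Dkk1 was then not tested), 1 at a threshold of 0.01, 1 with sex as a covariate, and 1 to 2 as each library was left out. The 9 Wnt pathway genes called were 19 with DESeq2, 14 with no filter, 0 at a threshold of 0.01 and 2 to 12 as each library was left out. The 1174 genes called in all were 1932 with DESeq2, 391 at a threshold of 0.01 and 529 to 1714 as each library was left out. With GENCODE exon lengths, the level per length in mutant atria was 22.9 CPM per kilobase for Sfrp2 (21.02 with the deposited length), 0.072 for Notum (0.054) and 0.18 for Wif1 (0.128), and no rank in either group changed.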
